A study of Mus musculus with 8 samples.

Results

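The collagen genes of the mouse frontal cortex were described here, with Col24a1 set beside the meningeal, basement membrane and neuronal collagens. The members were all protein-coding genes whose GENCODE M21 symbol is Col, a type number, the letter a and a chain number, and 44 of the 55536 genes in the count table met this rule. The rule used no expression value. Frontal cortex RNA was sequenced after ribosomal RNA depletion in 4 WT and 4 HAR123-KO libraries, all from mice 8 weeks old. HAR123-KO mice carried a deletion of the mouse counterpart of HAR123, an enhancer inside the Smg6 gene that evolved rapidly in the human lineage, and the controls were WT littermates. The deletion was present in the whole animal rather than in a chosen cell type, and the strains had been backcrossed to C57BL/6J. The study used this tissue to look for genes that depend on HAR123 in a region involved in cognitive flexibility. No label stated that each library came from a separate animal, so every p-value below measures the spread between libraries, which may be technical.

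Collagens are secreted or membrane-bound proteins whose chains wind together into a helix, and their helical stretches are runs of a repeat that begins with glycine (Gly-X-Y, with X and Y often proline and hydroxyproline). Fibrillar collagens form the tensile fibres of connective tissue, type IV collagens form the sheet of the basement membrane around blood vessels and under the meninges, and FACIT collagens (fibril-associated collagens with interrupted helices) sit on the surface of fibrils. In the brain most fibrillar and basement membrane collagen comes from the meninges and the vessel wall, while a few types, among them XIX and XXV, are made by neurons.

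The repeat set Col24a1 apart within its own structural group. The longest unbroken run of Gly-X-Y codons was counted in the longest annotated coding sequence of each gene. Of the 11 fibrillar genes, 9 had a run of 337 to 344 units. Col24a1 had 216 units and Col27a1 had 217, which measures the stretch up to the first break in the repeat and not the length of the whole helix. Outside the fibrillar group the runs were 23 units (Col26a1) to 113 units (Col9a1, Col9a2, Col9a3 and Col22a1) long. The first 5 units of the longest run are shown for 4 of the genes described below. They are a fibrillar chain with the shorter run, the main chain of type I collagen, a neuronal membrane collagen and a basement membrane chain. The letters are the coding strand of the GENCODE M21 transcripts, and capitals mark the glycine codons.
Col24a1 codons 568 to 582: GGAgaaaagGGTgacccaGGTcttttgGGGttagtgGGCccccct
Col1a1 codons 168 to 182: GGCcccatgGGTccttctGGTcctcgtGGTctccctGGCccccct
Col25a1 codons 529 to 543: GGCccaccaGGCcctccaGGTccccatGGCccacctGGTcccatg
Col4a1 codons 43 to 57: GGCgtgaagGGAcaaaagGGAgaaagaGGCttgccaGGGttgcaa
In each of these stretches the glycine codon returns without a break, while the codons between differ.

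The promoter windows of Col24a1 and of Col4a2 are printed because the counts of these genes are compared below. The windows come from RefSeq on GRCm38.p6 and run from 250 bases before the annotated start site to 50 bases from it, and 35 of the 44 genes had an entry. Capitals in the Col24a1 window mark the palindrome TGACGTCA, the sequence known as a cyclic AMP response element, and its last base is the annotated start base. Capitals in the Col4a2 window mark GC boxes (GGGCGG, or CCGCCC on the opposite strand) and a CCAAT box, none of which overlap.
Col24a1 promoter, chr3:145292222-145292521, plus strand: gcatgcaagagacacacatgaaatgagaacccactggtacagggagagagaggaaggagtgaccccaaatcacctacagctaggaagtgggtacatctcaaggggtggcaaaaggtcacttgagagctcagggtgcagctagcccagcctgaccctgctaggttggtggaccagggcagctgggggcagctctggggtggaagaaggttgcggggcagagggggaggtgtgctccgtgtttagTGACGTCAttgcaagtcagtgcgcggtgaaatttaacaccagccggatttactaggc
Col4a2 promoter, chr8:11312555-11312854, plus strand: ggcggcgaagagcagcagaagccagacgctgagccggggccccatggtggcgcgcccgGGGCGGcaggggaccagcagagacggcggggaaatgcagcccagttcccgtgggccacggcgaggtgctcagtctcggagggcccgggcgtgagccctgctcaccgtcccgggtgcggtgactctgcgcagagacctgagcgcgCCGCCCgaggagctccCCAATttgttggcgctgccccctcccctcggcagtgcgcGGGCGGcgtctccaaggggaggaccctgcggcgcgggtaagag
The palindrome was searched for after the Col24a1 sequence had been read. It was present in 1 of the 35 collagen genes with a window, Col24a1 itself, and in 1.79% of 32851 windows of all genes, searched on both strands. A GC box was found in 22 of the 35 collagen genes and in 35.7% of all windows. A CCAAT box was found in 13 of the 35 and in 37.4% of all windows, and the TATA word TATAAA in 5 of the 35 and in 13.6% of all windows. The start sites of Col4a1 and Col4a2 lie 21 bases apart on opposite strands, so their windows shared 78 bases. These matches are descriptions of letters and not of bound sites.

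The libraries held 13528251 to 17051001 counted reads, and Gm42418, a gene lying over ribosomal RNA sequence, took 55.1% to 58.0% of them. Nuclear protein-coding genes kept 2786320 to 3732172 counts per library, and the 44 collagen genes together 1635 to 2190. Depth therefore limited the family. Normalized counts (counts divided by the size factor of the library) averaged 10 or more in 30 collagen genes and fewer in 14. Of the 44 genes, 19 had a DESeq2 adjusted p, and 25, all with a mean under 17.6, were removed by DESeq2's filter on low means. Sums of markers of some other cell types did not overlap between genotypes. Summed normalized counts of 10 choroid plexus markers were 93.4 to 109 in WT and 741 to 779 in HAR123-KO, and those of 10 striatal projection neuron markers were 4337 to 4492 and 5758 to 5945. Cortical upper layer markers, which belong to the labelled tissue, summed to 4175 to 4293 in WT and 3888 to 4073 in HAR123-KO. Those sums did not overlap either, and cortex was present in all 8 libraries. Of the markers with a row, none was at 0 in all libraries.

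Per length of exon, Col6a1 was the most abundant collagen gene, with 38.2 ± 2.54 normalized counts per kb in the WT libraries and 35.3 ± 3.50 in those of HAR123-KO (SD, n = 4). Col6a1 encodes a chain of the beaded filaments of type VI collagen, which tie cells to the surrounding matrix. Over all 8 libraries its mean level per kb was 36.7, followed by Col4a2 (24.9), Col19a1 (22.8), Col25a1 (19.0), Col4a1 (16.1) and Col11a2 (13.9). In WT alone Col5a1 (11.9) stood just above Col11a2 (11.7), and in HAR123-KO alone Col11a2 (16.1) stood above Col4a1 (14.4). Pooled over genotypes, the 6 genes made up 54.7% of the summed collagen level per kb. Col10a1, the collagen of hypertrophic cartilage, was the lowest at 0.138 per kb. The range of Col6a1 over the 8 libraries lay above that of Col4a2, whereas the range of each later gene of the pooled order overlapped that of its neighbour. In the terms of the whole transcriptome the family was of middling to low level. Of protein-coding genes that averaged 10 or more normalized counts, 66.4% were below Col6a1 per kb, 53.6% below Col4a2, 50.5% below Col19a1 and 7.30% below Col1a2.

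Col24a1 stood at 5.96 normalized counts per kb over the 8 libraries, above 12% of the same protein-coding genes. Its mean level per kb of 7.51 in WT was above those of Col1a1 (6.74) and Col11a1 (5.72), and its 4.40 in HAR123-KO was below theirs (5.66 and 4.69). In both genotypes it was below the neuronal collagens Col19a1 and Col25a1.

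**Figure D1:**
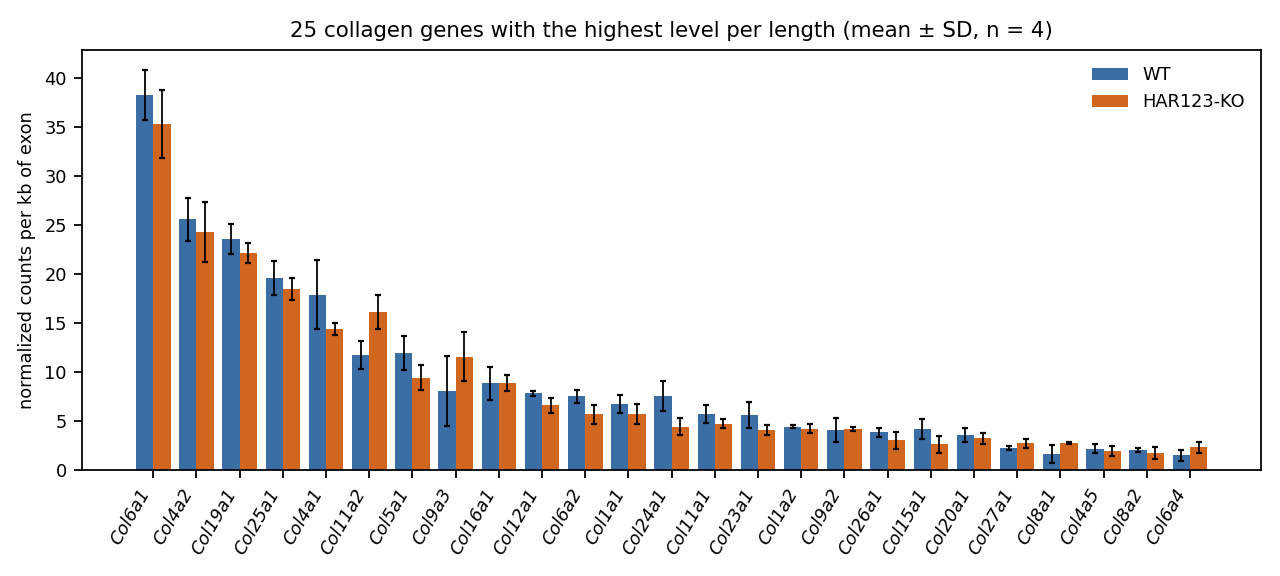
Levels of the 25 collagen genes with the highest level per length, in normalized counts per kb of exon (bars from 0 are means of 4 libraries per genotype, error bars SD). Col6a1 led with 38.2 in WT and 35.3 in HAR123-KO, and Col24a1 stood at 7.51 and 4.40.

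**Figure D2:**
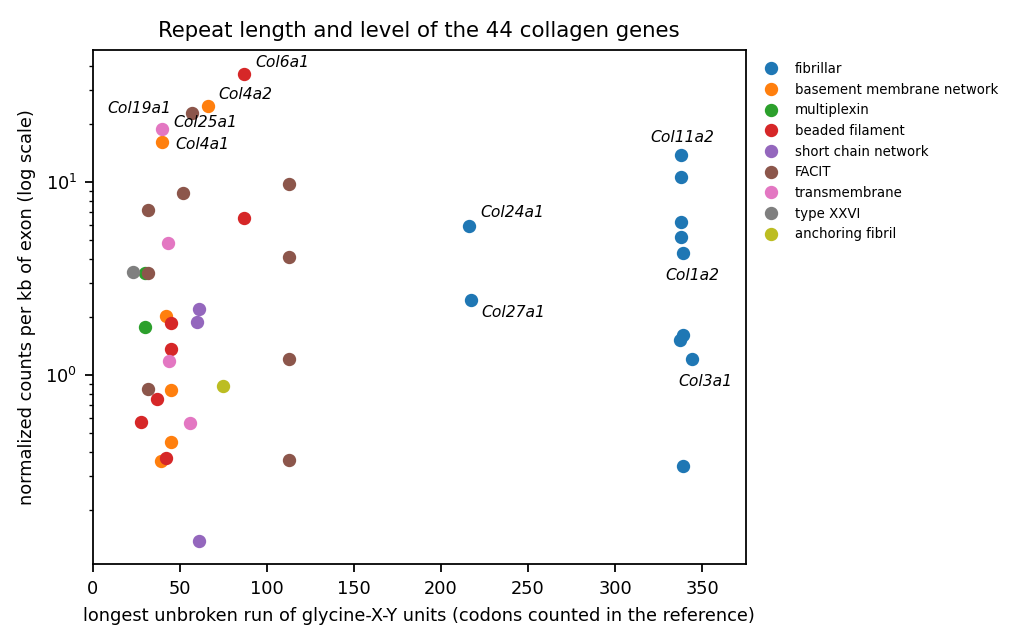
Longest unbroken run of Gly-X-Y units (horizontal axis, units counted in the coding sequence) against the mean level over 8 libraries (vertical axis, normalized counts per kb of exon, log scale) for the 44 collagen genes, coloured by structural group. Col24a1 and Col27a1 sit together at 216 and 217 units, between the 9 other fibrillar genes at 337 to 344 and the rest at 23 to 113.

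Between the genotypes, 1 of the 19 collagen genes with an adjusted p passed the threshold, an adjusted p under 0.05 together with a log2 fold change beyond 0.5 in either direction. That gene was Col24a1, which fell in HAR123-KO. Over all genes tested the same threshold called 38 of 12758, or 0.298%. Genes called lower were 0.0705% of those tested and genes called higher 0.227%, and 1.69% had an adjusted p under 0.05 whatever the fold, where Col24a1 was again the 1 collagen gene. With edgeR's quasi-likelihood test 30 collagen genes were testable, of which 2 had an adjusted p under 0.05 (Col24a1 and Col11a2), beside 2.28% of all genes, and only Col24a1 also passed the fold limit, beside 0.503%. Col24a1 was among the genes that the study picked from these same libraries, so its call here is not independent evidence of its direction. In bulk tissue, fewer cells of a type and less RNA per cell cannot be told apart.

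Col24a1 (ENSMUSG00000028197, chromosome 3, 145292472 to 145552011, GRCm38) encodes a fibrillar collagen chain. Its normalized counts were 48.4, 57.7, 73.7 and 49.2 in WT replicates 1 to 4 and 30.7, 26.6, 34.3 and 42.5 in HAR123-KO replicates 1 to 4. Every HAR123-KO library lay below every WT library, with WT replicate 3 the highest and the gap between the groups narrow. The WT mean was 57.2 ± 11.7 and the HAR123-KO mean 33.6 ± 6.77 (SD, n = 4), which is 58.6% of WT. On the log2 scale Col24a1 fell by 0.79 ± 0.21 (SE), with a DESeq2 adjusted p of 0.0113 and an edgeR adjusted p of 0.00304. The 95% interval of the log2 fold change ran from -1.19 to -0.39. None of its exon bases is shared with another annotated gene. Leaving out WT replicate 2 or any of HAR123-KO replicates 1, 2 and 3 ended the call (DESeq2 adjusted p from 0.0582 to 0.152). With WT replicate 3 or HAR123-KO replicate 4 left out there was no adjusted p, and over the 8 fits the log2 fold change stayed between -0.92 and -0.63.

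Over the expressed family, with Col24a1 counted in, log2 fold changes were more often below 0 than above it. Of the 30 genes averaging 10 or more normalized counts, 21 (70.0%) had a log2 fold change below 0, where 50.4% of all genes of that level had one. Their median log2 fold change was -0.14, beside -0.001 over all such genes. An unadjusted DESeq2 p under 0.05 was reached by 10 of the 30 (33.3%), beside 8.17% of all genes. Of these 10, 7 were lower in HAR123-KO (Col24a1, Col4a1, Col12a1, Col5a1, Col6a2, Col15a1 and Col22a1) and 3 were higher (Col11a2, Col9a3 and Col8a1), where 3.98% and 4.2% of all genes were. The genotypes did not overlap in 4 of the 30 (13.3%), namely Col24a1, Col11a2, Col12a1 and Col22a1, beside 7.21% of all genes. Only Col24a1 of these passed the adjusted threshold, and the count of 10 was 4 without HAR123-KO replicate 3 and 6 without HAR123-KO replicate 1.

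**Figure D3:**
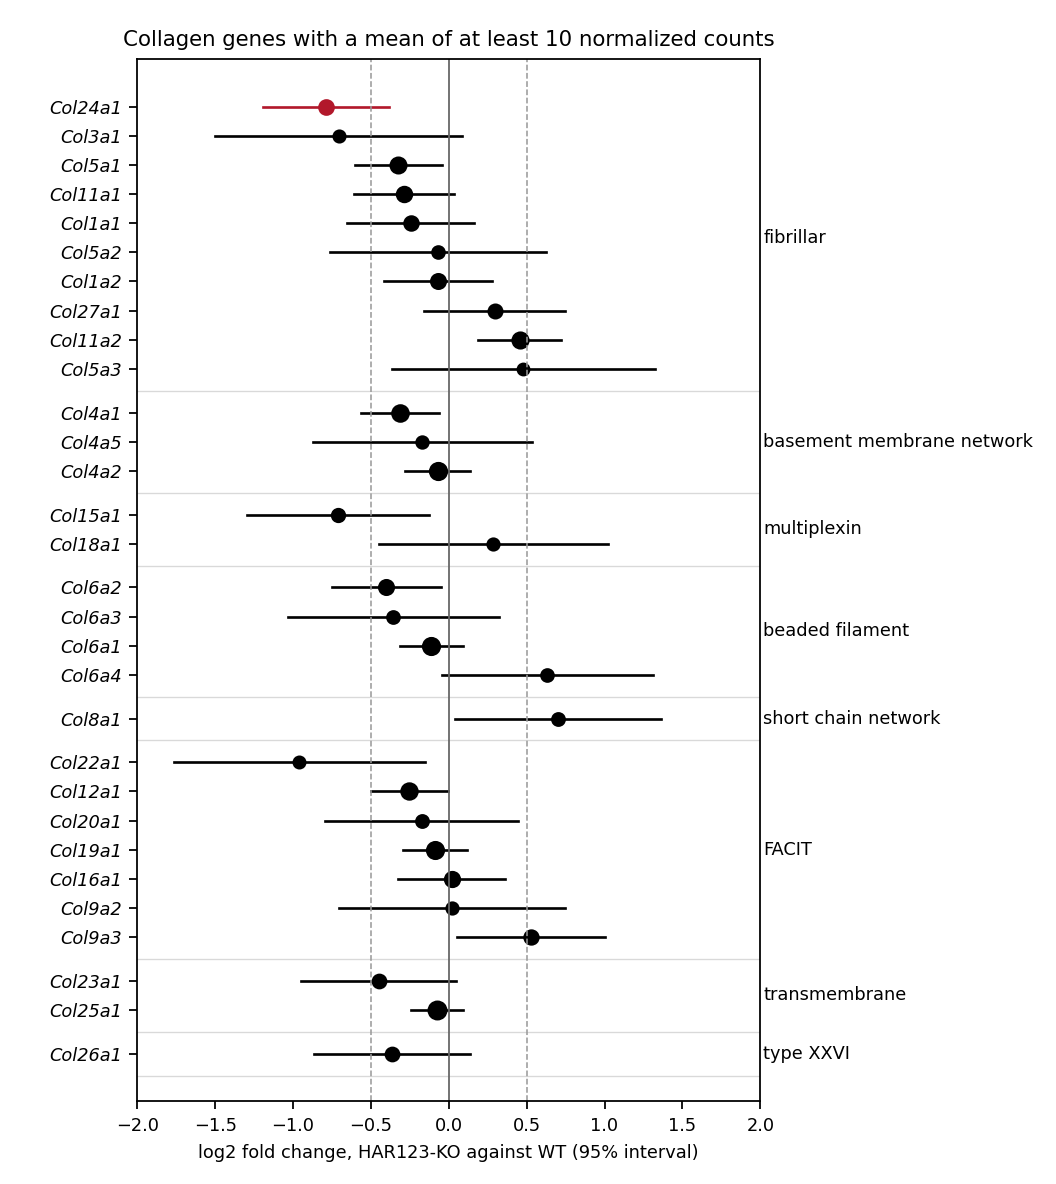
Log2 fold change of HAR123-KO against WT for the 30 collagen genes averaging 10 or more normalized counts, by structural group (points, larger for genes with a higher mean; lines, 95% intervals; dashed lines, the fold limit of 0.5 in either direction). Col24a1, in red at -0.79, is the gene past the threshold, and 21 of the 30 points lie left of 0.

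Col11a2, which encodes a chain of type XI collagen, a minor fibrillar collagen that limits fibril width in cartilage, was the collagen gene nearest to the threshold in the opposite direction. It had 73.2, 89.6, 88.1 and 70.6 normalized counts in WT and 113, 93.2, 117 and 120.2 in HAR123-KO. All 4 HAR123-KO libraries were above all WT libraries, with HAR123-KO replicate 2 close to the highest WT value. This was a log2 fold change of 0.45 ± 0.14 (SE), under the fold limit, and the DESeq2 adjusted p was 0.0528, against an edgeR adjusted p of 0.0172. Its partner chain Col11a1 had a log2 fold change of -0.29 ± 0.16 (SE), with a 95% interval of -0.61 to 0.03.

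The meningeal fibril chains (Col1a1, Col1a2, Col3a1, Col5a1 and Col5a2) are the collagens of the fibroblasts that cover the brain. Their log2 fold changes were below 0 in 5 of 5 genes, with a median of -0.25, and none passed the threshold with DESeq2 or edgeR, while 1 (Col5a1) had an unadjusted DESeq2 p under 0.05. Summed per kb, they stood at 23.0 to 29.9 normalized counts for WT and 20.4 to 23.7 in HAR123-KO, which overlapped.

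Col1a1, the main chain of type I collagen, had 52.9, 43.2, 39.0 and 41.7 normalized counts in WT and 45.1, 28.5, 37.9 and 37.2 in HAR123-KO. Col1a2, its partner in the type I helix, had 52.9, 56.6, 55.9 and 53.5 in WT and 51.2, 45.6, 59.0 and 53.2 in HAR123-KO. Both overlapped between genotypes, with HAR123-KO replicate 2 the lowest library for each. The log2 fold change of Col1a1 was -0.25 ± 0.21 (SE, adjusted p = 0.858 by DESeq2). For Col1a2 it was -0.07 ± 0.18 (SE, adjusted p = 0.984 by DESeq2), with a 95% interval of -0.41 to 0.28 that lay inside the fold limit.

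Type III collagen, a homotrimer that runs beside type I in elastic tissue, is encoded by Col3a1, which had 12.4, 17.5, 10.2 and 19.3 normalized counts in WT and 14.3, 10.5, 7.04 and 4.25 in HAR123-KO. The ranges overlapped, and HAR123-KO replicates 3 and 4 were the lowest of the 8. At -0.71 ± 0.40 (SE) on the log2 scale it was nearly as far from 0 as Col24a1, but its counts were lower and its 95% interval of -1.50 to 0.09 included 0. The filter on low means left it without a DESeq2 adjusted p, and that of edgeR was 0.374. Type V collagen nucleates fibrils of type I. Its chain gene Col5a1 had 122, 99.9, 88.1 and 94.1 in WT and 70.6, 89.4, 88.9 and 70.2 in HAR123-KO. WT replicate 1 was the highest, and HAR123-KO replicates 2 and 3 exceeded the lowest WT library, so the groups overlapped. For Col5a1 the log2 fold change was -0.32 ± 0.14 (SE, adjusted p = 0.412 by DESeq2). Col5a2, its partner chain, had 19.1, 9.27, 11 and 24.6 in WT and 10.2, 13.3, 19.4 and 17.0 in HAR123-KO. These values were interleaved, with a log2 fold change of -0.07 ± 0.35 (SE) and a 95% interval of -0.76 to 0.62.

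The basement membrane chains Col4a1 and Col4a2 assemble into a single helix and are transcribed from a shared promoter region in opposite directions. Col4a1 had 124, 172, 125 and 112 normalized counts in WT and 104, 114, 105 and 106 in HAR123-KO. WT replicate 2 was well above the other libraries, the HAR123-KO libraries were close together, and HAR123-KO replicate 2 exceeded the lowest WT library. The log2 fold change of Col4a1 was -0.31 ± 0.13 (SE, adjusted p = 0.327 by DESeq2), and without WT replicate 2 it was -0.17.

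Col4a2 had 167, 177, 150.0 and 183 in WT and 190.4, 145, 153 and 155 in HAR123-KO. The highest of the 8 was HAR123-KO replicate 1 and the groups overlapped widely. Its log2 fold change was -0.07 ± 0.11 (SE, adjusted p = 0.958 by DESeq2), with a 95% interval of -0.28 to 0.14. Of the other chains of the type IV network, Col4a5 had a log2 fold change of -0.17 ± 0.36 (SE), and Col4a3, Col4a4 and Col4a6 were under a mean of 10 normalized counts. Summed per kb, the 6 type IV genes stood at 42.9 to 53.1 normalized counts for WT and 40.3 to 46.1 in HAR123-KO.

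Col15a1, which encodes a multiplexin of the basement membrane zone of vessels and muscle, had 23.6, 26.8, 35.6 and 20.3 normalized counts in WT and 12.3, 18.1, 12.3 and 23.4 in HAR123-KO. HAR123-KO replicate 4 lay within the WT range and the other three below it. For Col15a1 the log2 fold change was -0.71 ± 0.30 (SE, adjusted p = 0.367 by DESeq2). Col18a1, the related gene from which endostatin is cut, had a log2 fold change of 0.29 ± 0.38 (SE), with a 95% interval of -0.45 to 1.02.

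Neuronal collagens were represented by Col19a1 and Col25a1. Col24a1 was listed with them, though these bulk counts do not show which cells make it. Col25a1, a membrane collagen of neurons needed for motor axons to innervate muscle, had the highest counts of the family. It had 269, 248, 223 and 272 normalized counts in WT and 242, 253, 241 and 219 in HAR123-KO. The groups overlapped, and the log2 fold change was -0.08 ± 0.09 (SE, adjusted p = 0.924 by DESeq2) with a 95% interval of -0.24 to 0.09.

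Col19a1, a FACIT chain made by interneurons, had 178, 155, 158 and 157 normalized counts in WT and 144, 161, 149 and 154 in HAR123-KO. WT replicate 1 stood above the other libraries, and HAR123-KO replicate 2 exceeded the remaining WT libraries. For Col19a1 the log2 fold change was -0.09 ± 0.10 (SE, adjusted p = 0.925 by DESeq2), with a 95% interval of -0.29 to 0.11. For both genes the interval excluded a change as large as the fold limit and lay wholly above that of Col24a1. Summed per kb, the 3 genes stood at 49.3 to 53.0 normalized counts for WT and 43.7 to 46.4 in HAR123-KO. Col24a1 itself is in that sum, at a mean of 7.51 per kb in WT and 4.40 in HAR123-KO, and without it the other 2 genes summed to 40.1 to 46.6 in WT and 39.3 to 42.9 in HAR123-KO, which overlapped.

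The type VI chains Col6a1 and Col6a2 join in a single helix. Col6a1 had 178, 152, 166 and 173 normalized counts in WT and 166, 159, 161 and 132 in HAR123-KO, overlapping groups with HAR123-KO replicate 4 the lowest. Its log2 fold change was -0.11 ± 0.10 (SE, adjusted p = 0.888 by DESeq2). Col6a2 had 68.7, 63.8, 55.9 and 61.0 in WT and 41.0, 58.0, 42.3 and 46.8 in HAR123-KO. HAR123-KO replicate 2 exceeded the lowest WT library, and the other three were below all WT libraries. For Col6a2 the log2 fold change was -0.40 ± 0.18 (SE, adjusted p = 0.429 by DESeq2).

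Among the FACIT genes, Col12a1, whose product binds type I fibrils, had 114, 123, 119 and 121 normalized counts in WT and 108, 84.6, 97.7 and 111 in HAR123-KO. The groups did not overlap, though HAR123-KO replicate 4 was close to the lowest WT library. Its log2 fold change was -0.25 ± 0.13 (SE, adjusted p = 0.535 by DESeq2). Col22a1, a collagen of tissue junctions, had 12.4, 11.3, 17.8 and 17.1 in WT and 11.3, 6.66, 6.16 and 6.38 in HAR123-KO. HAR123-KO replicate 1 came just under the lowest WT library, while the other three were far below it. At -0.96 ± 0.41 (SE) its log2 fold change was the most negative of the 30 genes, with a 95% interval of -1.77 to -0.16. DESeq2 with its filter on low means gave it no adjusted p, and the edgeR adjusted p was 0.14.

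Col9a3, a chain of the type IX collagen of cartilage, had 18, 50.4, 27.1 and 27.8 normalized counts in WT and 44, 37.1, 58.1 and 38.3 in HAR123-KO. WT replicate 2 exceeded all but one of the HAR123-KO libraries. For Col9a3 the log2 fold change was 0.53 ± 0.24 (SE, adjusted p = 0.459 by DESeq2), and 6.07% of its exon bases overlap Tcfl5 on the opposite strand, whose reads could be told apart only if strand was used at counting, which the sources used here do not give. Without WT replicate 2 the log2 fold change of Col9a3 was 0.86 (adjusted p = 0.0975 by DESeq2), and without WT replicate 1 it was 0.35. Col8a1, a short chain collagen of endothelial membranes, had 5.63, 8.24, 17.8 and 20.3 in WT and 21.5, 21.9, 20.2 and 22.3 in HAR123-KO. WT replicates 1 and 2 were low and WT replicates 3 and 4 lay near the HAR123-KO libraries. Its log2 fold change was 0.70 ± 0.34 (SE), with a 95% interval of 0.04 to 1.36, no DESeq2 adjusted p after the filter and an edgeR adjusted p of 0.269.

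**Figure D4:**
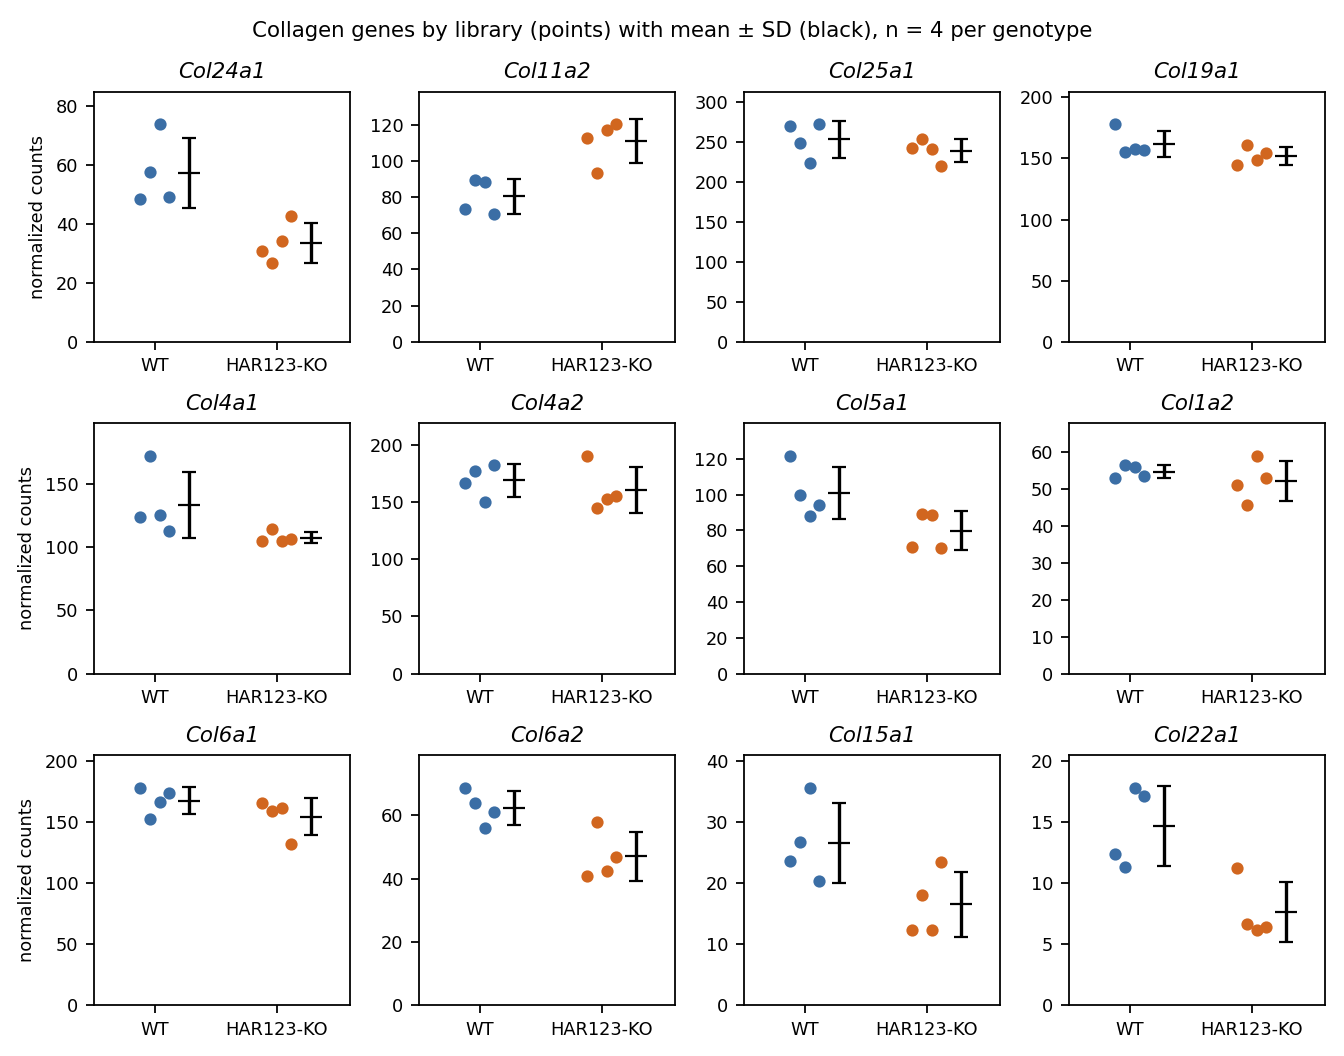
Normalized counts of 12 collagen genes in each library (vertical axes from 0, a point per library in replicate order; black bar and whiskers, mean ± SD, n = 4 per genotype). In Col24a1 all WT points (48.4 to 73.7) lie above all HAR123-KO points (26.6 to 42.5), and in Col11a2 the order is the opposite.

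The remaining 12 genes with a mean of at least 10 had log2 fold changes from -0.45 (Col23a1) to 0.63 (Col6a4) and unadjusted DESeq2 p-values from 0.0663 to 0.955. The 14 genes under a mean of 10 included the cartilage collagens Col2a1 and Col10a1 and the skin collagens Col7a1 and Col17a1. None of the 14 had an unadjusted p under 0.05 and the smallest was 0.121, but their standard errors ran from 0.44 to 3.16, so a change of the size seen in Col24a1 was not detectable at this depth. Col17a1, Col28a1, Col9a1 and Col10a1 had at least a library with 0 counts. Intervals lying wholly inside the fold limit were found for 7 genes, Col25a1, Col4a2, Col6a1, Col19a1, Col12a1, Col16a1 and Col1a2.

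Col24a1 was then set against the reference collagens within each library as a log2 ratio of normalized counts, a value that does not depend on the size factors. Beside Col25a1 the ratio was -2.16 ± 0.41 for WT and -2.85 ± 0.37 for HAR123-KO (SD, n = 4), a difference of -0.69 (exact two-sided permutation p = 0.0857). Beside Col4a2 the difference was -0.69 (exact permutation p = 0.0571), and beside Col5a1, of the fibrillar group, it was -0.43 (exact permutation p = 0.257). The Col24a1 ratios overlapped between genotypes for all 3 reference genes, most for Col5a1.

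Chains that share a helix or a type were compared in the same way. Col11a2 relative to Col11a1 was 0.15 ± 0.35 for WT and 0.89 ± 0.14 for HAR123-KO (SD, n = 4), a difference of 0.74 with no overlap (exact permutation p = 0.0286, the smallest that 4 against 4 libraries can give). The differences were -0.22 for Col4a1 relative to Col4a2 (exact permutation p = 0.286), 0.30 for Col6a1 relative to Col6a2 (exact permutation p = 0.171) and -0.19 for Col1a1 relative to Col1a2 (exact permutation p = 0.343). The 7 ratios were one family, chosen after the values were known, and no adjusted p was below 0.2.

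**Figure D5:**
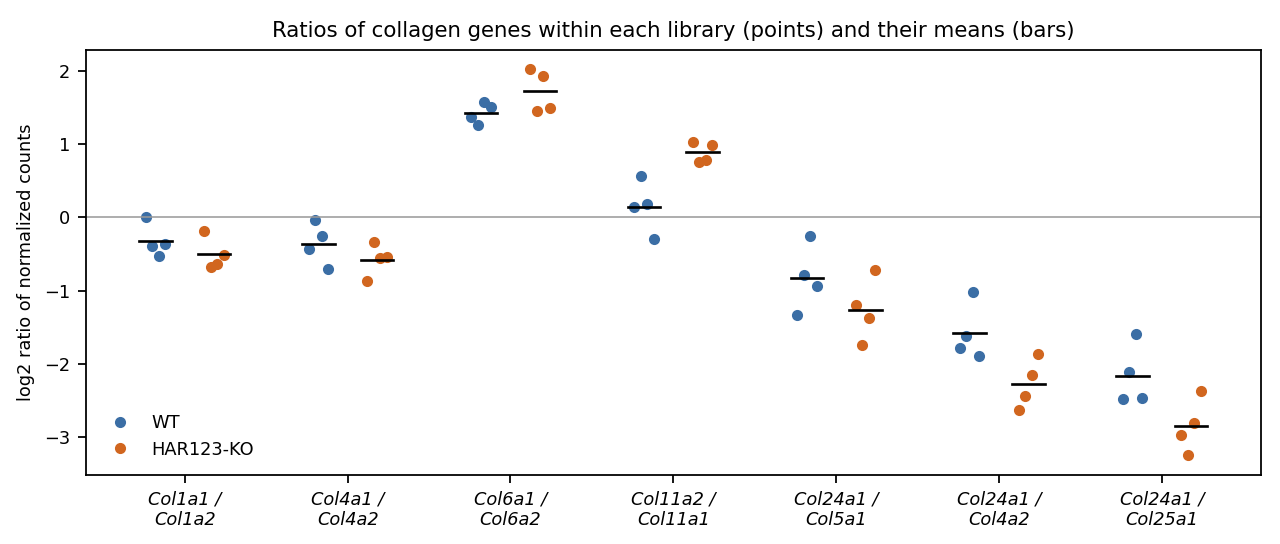
Log2 ratio of the normalized counts of a pair of collagen genes within each library (points, 4 per genotype; bars, means). The Col11a2 to Col11a1 ratio is 0.76 to 1.03 in HAR123-KO and -0.30 to 0.56 in WT, while the 3 ratios with Col24a1 are lower on average in HAR123-KO and overlap.

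By structural group, the sum per kb of all 44 genes was 247.1 to 258.3 normalized counts for WT and 231.4 to 243.3 in HAR123-KO. Fibrillar genes summed to 54.0 to 56.2 and 47.0 to 55.6, with 7 of the 10 genes of sufficient mean below 0 and a median log2 fold change of -0.16. Beaded filament genes summed to 47.1 to 54.1 and 39.9 to 49.3, and FACIT genes to 53.7 to 64.2 and 56.6 to 60.3. The fibrillar, beaded filament and FACIT sums overlapped between genotypes. The sum over the family did not, but without Col24a1 it was 237.4 to 250.7 in WT and 226.0 to 239.3 in HAR123-KO, which overlapped. No test was made of these sums.

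Genes that fold, process, bind or break down collagens, and partners of collagen in the basement membrane, came from 5 lists of 64 genes in all. Of these, 50 averaged 10 or more normalized counts. The laminin chains named below are from the list of basement membrane partners. None of the 41 with an adjusted p passed the DESeq2 threshold, 6 of the 50 (12%) had an unadjusted p under 0.05 beside 8.17% of all genes, and edgeR called 1, Lama1, at a background of 0.503%. The 50 genes had a median log2 fold change of -0.05, with 30 lower and 20 higher. Lama1, a laminin chain of the pial basement membrane, averaged 30.2 ± 6.04 normalized counts for WT and 15.6 ± 5.37 for HAR123-KO (SD, n = 4), a log2 fold change of -0.95 with a DESeq2 adjusted p of 0.0613 and an edgeR adjusted p of 0.0218. Serpinh1, the collagen-specific chaperone of the endoplasmic reticulum, had a log2 fold change of -0.44 ± 0.20 (SE, adjusted p = 0.461 by DESeq2). P4ha1, a prolyl hydroxylase subunit that stabilizes the helix, had -0.27 ± 0.10 (SE, adjusted p = 0.29 by DESeq2), and the laminin chain Lamc3 had -0.71 ± 0.29 (SE, adjusted p = 0.331 by DESeq2). The other 2 of the 6 were higher in HAR123-KO, the metalloproteinase inhibitor Timp2 at 0.15 ± 0.06 (SE, adjusted p = 0.296 by DESeq2) and the laminin chain Lama5 at 0.42 ± 0.21 (SE, adjusted p = 0.552 by DESeq2).

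Of these lists, collagen folding and modification had 11 genes lower and 7 higher, processing and cross-linking 3 and 4, receptors 6 and 3, breakdown 2 and 2, and basement membrane partners 8 and 4. The collagenase genes Mmp8 and Mmp13 were at 0 counts in all libraries.

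Markers of the cells that make these collagens were counted beside them. Meningeal and perivascular fibroblast markers were lower in 8 of 8 genes averaging 10 or more, and the 11 genes summed to 202 to 252 normalized counts for WT and 161 to 175 in HAR123-KO. The most abundant of them, Fmod, had a log2 fold change of -0.69 ± 0.21 (SE), with an adjusted p of 0.0626 by DESeq2 and 0.0208 by edgeR, which called it. Endothelial markers were lower in 10 of 10 genes, summing to 496 to 545 in WT and 390.1 to 415 in HAR123-KO, and Vwf, which carries clotting factor VIII, passed the threshold at -0.90 ± 0.16 (SE, adjusted p = 7.3e-06 by DESeq2). The most abundant endothelial marker, the receptor Flt1, had -0.33 ± 0.12 (SE, adjusted p = 0.222 by DESeq2). Pericyte and smooth muscle markers were lower in 5 of 7 genes and their sums overlapped, at 402 to 474 and 423 to 458. No marker of these lists was at 0 in all libraries, and their part in the values of the fibrillar and vascular collagens was not tested.

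Neuronal markers were read beside Col24a1, Col19a1 and Col25a1. Claustrum and layer 6b markers were lower in 7 of 8 genes and summed to 1054 to 1197 normalized counts for WT and 858 to 917 in HAR123-KO. Of these, Nr4a2 fell by 0.81 ± 0.11 on the log2 scale (SE, adjusted p = 1.5e-11 by DESeq2) and Gnb4 had an adjusted p of 0.000125 at -0.48 ± 0.10 (SE, DESeq2), while Synpr, the most abundant, had -0.17 ± 0.08 (SE, adjusted p = 0.461 by DESeq2). Upper layer markers were lower in 7 of 8 genes and summed to 4175 to 4293 in WT and 3888 to 4073 in HAR123-KO, without overlap. Of these, Cux2 had an adjusted p of 0.0167 at -0.20 ± 0.05 (SE, DESeq2), under the fold limit. Interneuron markers were lower in 5 of 8 genes, and their sums of 2261 to 2391 in WT and 2326 to 2415 in HAR123-KO overlapped. All 10 striatal markers and all 4 choroid plexus markers of sufficient mean were higher in HAR123-KO, and no neuronal marker was at 0 in all libraries. The part of these differences in the fall of Col24a1 was not tested.

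The deleted enhancer lies in Smg6 on chromosome 11, and 2 collagen genes lie on that chromosome. Col1a1 is 19.8 Mb and Col23a1 23.3 Mb from Smg6, and neither passed the threshold. Exon bases were shared with another annotated gene in 13 of the 44 collagen genes, by 6.07% (Col9a3) of the exon bases at most.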

How the data were processed

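Total RNA from frontal cortex was depleted of ribosomal RNA and sequenced as paired-end reads, per the labels. The authors aligned reads with STAR (2.5.2b) to GRCm38, counted exons per gene with featureCounts, and deposited raw counts. Strand and multi-mapping settings are not given in the sources used here. The table had 55536 genes, all found in GENCODE M21 with the same coordinates, and 0 unused columns of per-sample values. Groups and replicate numbers came from the sample titles.

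Counts were fitted with DESeq2 1.42.0 in R 4.3.3 (Wald test, genotype alone, Benjamini-Hochberg adjustment over 12758 genes kept by the independent filter), on the whole table, and with edgeR 4.0.16 as the alternative. The threshold was an adjusted p under 0.05 together with a log2 fold change beyond 0.5 in either direction. Levels per kb used the exon length of each gene, and intervals were 95% Wald intervals. The fitting steps were tested on simulated data, where the changed genes had higher means and larger changes than Col24a1. That test therefore does not cover a gene like it. Genes given with every library were Col24a1, other collagens with an unadjusted p under 0.05, the 3 highest per kb, and those of the meningeal, type IV (Col4a1, Col4a2) and neuronal views. The members, lists and pairs were chosen with earlier results of these data known. Total counts were 13528251 to 17051001 per library. Alternatives were TMM and protein-coding scaling, other filters and thresholds, a replicate block and each library left out.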

Additional observations from a re-analysis of the deposited data

Results flagged for a closer look

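In 4 of the 56 groups of 4 libraries examined, a single library lay far from the other three, its gap to the nearest taking up most of the range of the group, where chance gives about 2.8. Col22a1 had 11.3 normalized counts in HAR123-KO replicate 1 and 6.16 to 6.66 in the other HAR123-KO libraries. Col19a1 had 178 normalized counts in WT replicate 1 and 155 to 158 in the other WT libraries. The transmembrane collagens summed to 30.4 normalized counts per kb in WT replicate 1 and 25.1 to 25.8 in the others. The anchoring fibril collagen, Col7a1 alone, stood at 0.624 normalized counts per kb in WT replicate 4 and 0.876 to 0.906 in the others.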

How the results depend on the processing

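With each library left out in turn, the number of collagen genes past the threshold ran from 0 to 1, and without HAR123-KO replicate 2 the gene called was Col11a2 (log2 fold change 0.53, DESeq2 adjusted p = 0.0390) in place of Col24a1. With the limits set to 0.01 for the adjusted p and 1 for the log2 fold change it was 0. Replicate numbers did not pair the libraries: the correlations of same-numbered deviations were -0.018 to 0.014 over 11251 genes. With a replicate block the count of collagen genes was 0 (Col24a1 at -0.77, adjusted p = 0.99995), 9 genes of the whole table were called instead of 38, and the count with an unadjusted p under 0.05 was 2 instead of 10. That count was 14 with edgeR and 4 to 8 with each library left out, alternatives added after seeing the data. The pathway lists had 1 called gene with edgeR. Over the whole table edgeR called 73 genes, and 18 and 11 were called without WT replicate 3 and HAR123-KO replicate 4. Without the fold limit DESeq2 called 215 genes and edgeR 331. Col5a2 ran from -0.26 to 0.21 with each library left out and turned positive without WT replicate 1 (0.03), WT replicate 4 (0.21) or HAR123-KO replicate 1 (0.07). The cause was not tested. Of 288 alternatives for the 18 genes given by library, 276 kept their direction and side of the threshold. Of the 18 genes only Col24a1 was past it in the main fit, so the others had no call to lose. Genes not called counted as keeping their side also where a fit gave no adjusted p. Col24a1 lost its call, or had no adjusted p, in 8 of its alternatives. With TMM factors or protein-coding size factors the number of collagen genes below 0 was again 21 of 30. At 1635 to 2190 collagen counts per library, genes with a mean under 10 could not show a change of the size of that of Col24a1. DESeq2 could call none of the 25 genes without an adjusted p, which reach up to a mean of 17.6.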
